A study of Mus musculus with 12 samples.

Results

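A set of 10 genes that mark the melanocyte lineage or its loss were followed in single-cell transcriptomes of mouse SCC35 lines: Mitf, Sox10, Tyr, Tyrp1, Dct, Pmel, Mlana, Ngfr, Axl and Sox9. They are 10 of the 32285 gene rows of the matrices, each matched by its symbol to 1 row, and were chosen by name and not by a measured value. The series concerns the rejection of melanoma, so the question was which of these lineage genes can be detected at all in the tumour lines, and whether those that can differ between Mif knockout and control lines or with time. Tumours were dissociated, hashed with antibodies, sorted for live cells and sequenced as 6 libraries, of which 4 hold 1 line each and 2 are mixed. A deposited sheet ties each hashtag to a line, a day and a letter. The control group has lines 15 and 18, labelled as controls of the Mif KO, and the KO group has lines 19 and 24, labelled as SCC35 Mif KO. Each group has 21 hashtags from days 0, 6, 10 and 16. A further 3 hashtags are called WT in the sheet, one each from days 6, 10 and 16, and were placed in no group. The sources used here do not say what was done at day 0, whether its cells came from tumours, which host was used, or whether a line is a clone.

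Mitf encodes the transcription factor that directs melanocyte development and switches on the pigment genes. Tyr, Tyrp1 and Dct encode the enzymes of melanin synthesis, Pmel the fibril protein on which melanin is laid down, and Mlana a melanosomal antigen. Sox10, a neural crest factor shared by melanocytes and Schwann cells, acts upstream of Mitf. Melanoma cells that lose this program are known to gain the receptors Ngfr and Axl, together with Sox9, which also directs cartilage development, and mesenchymal genes.

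Cells were read as line cells when they had no UMI of Ptprc, Cd3e or Pecam1 and at most 1 of Tyrobp, which leaves out immune and endothelial cells but not fibroblasts or other stroma. Of 100459 passing cells with 1 hashtag, 72495 were line cells, with 552633187 UMIs (molecules counted by their unique identifiers). Each of the 45 hashtags held 219 to 3460 line cells and 1956292 to 26289358 UMIs. Day 0 hashtags held 0 to 4 myeloid cells (with Ptprc and at least 2 UMIs of Tyrobp), and later hashtags 65 to 641. Day 0 thus held almost no myeloid cells, which limits how far later days can be read as a course within tumours. Levels are given as CPM, the UMIs of a gene scaled to all UMIs in the summed line cells of a hashtag. Line 15 cells held a median of 9190 UMIs, line 18 cells 5417, line 19 cells 8709 and line 24 cells 4142. Mif was at 1747 to 3109 CPM in the control hashtags and 45.4 to 772 CPM in the KO hashtags, so the groups did not overlap. Any 2 libraries shared 802 to 1613 barcodes. Hashtags of the same line and day differed by more than sampling noise, with a chi-square per degree of freedom of 1.68 to 35.2. Nothing in the labels says that letters are separate animals, so p-values cover the spread between hashtags, which may be technical.

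The upstream bases of the 3 pigment enzyme genes are shown because these genes lie at the limit of detection while Mitf is counted throughout. RefSeq windows (GRCm38.p6) were found for 6 of the 10 genes and were searched over the 250 bases before the start for TCATGTG, a motif known to be bound by Mitf, on both strands (CACATGA on the reverse). The motif stands in capitals in the sequences below, which run 5′ to 3′ on the strand of the gene: Tyr at chr7:87493513-87493762 (minus strand), 30 bases of Tyrp1 at chr4:80834155-80834184 (plus strand) and Dct at chr14:118052247-118052496 (minus strand).
Tyr: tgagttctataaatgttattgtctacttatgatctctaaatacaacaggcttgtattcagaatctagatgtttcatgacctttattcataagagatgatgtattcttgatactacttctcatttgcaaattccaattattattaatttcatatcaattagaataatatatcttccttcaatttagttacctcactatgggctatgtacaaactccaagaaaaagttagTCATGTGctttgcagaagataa
Tyrp1: tggggagggagTCATGTGctgcctagtagt
Dct: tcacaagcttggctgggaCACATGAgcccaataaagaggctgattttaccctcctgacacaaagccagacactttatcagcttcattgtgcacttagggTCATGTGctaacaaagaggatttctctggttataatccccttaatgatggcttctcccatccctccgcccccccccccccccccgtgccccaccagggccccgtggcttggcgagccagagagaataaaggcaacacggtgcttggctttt
Each stretch of Tyr and Tyrp1 holds the motif 1 time, and that of Dct holds it 1 time on each strand. At least 1 match stood in 3.25% of the 32851 windows in the table. The Tyrp1 stretch lies before the RefSeq start but inside the gene as GENCODE M21 draws it. The 5 windows of Mitf, Axl and Ngfr hold 0. A match is a run of letters and not a measured binding site.

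The melanin program was at or near the limit of counting in every line. Tyr (GRCm38, chromosome 7, 87424771 to 87493512) had 0 UMIs in 72495 line cells, which allows a level of up to 0.00543 CPM and a share of up to 0.00414% of cells with a UMI. Limits and intervals here cover counting error only. Tyrp1 (chromosome 4, 80834123 to 80851719) had 1 UMI. Dct (chromosome 14, 118012790 to 118052244) had 13 UMIs in 2 cells, and 12 of them came from a single cell. It overlaps an antisense transcript on the other strand. These 3 enzymes thus had 0 or 1 UMI outside that cell, as the plot of levels by line shows.

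**Figure D1:**
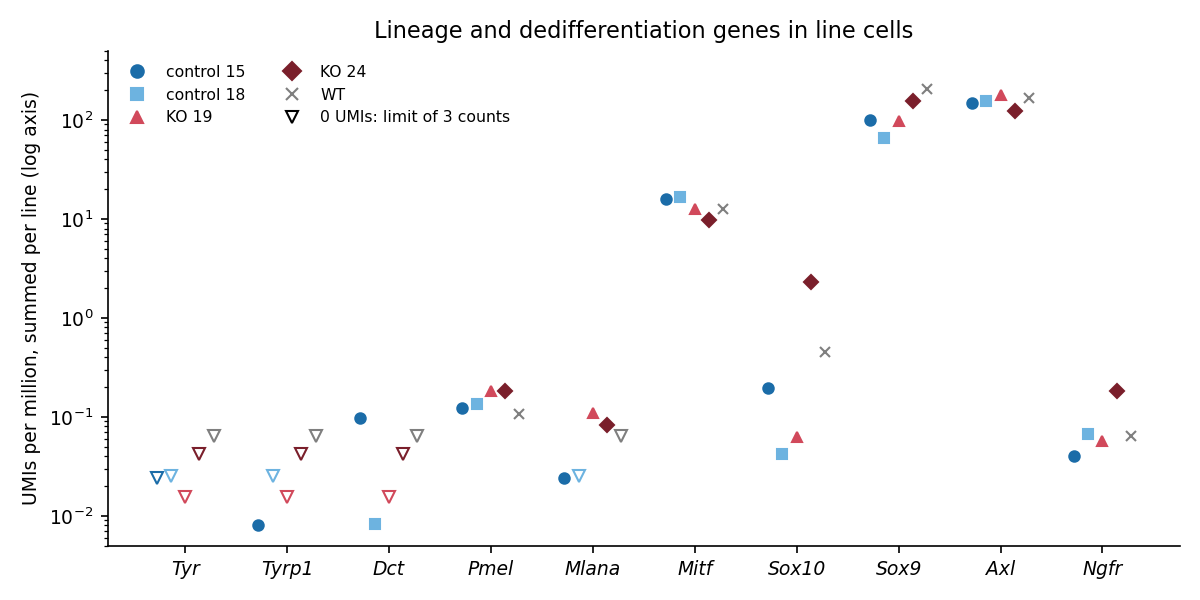
Level of each of the 10 genes in the summed line cells of each line (CPM, log axis), with open triangles at the limit of 3 counts where a line had 0 UMIs. Tyr is at 0 in all 4 lines and WT, while Mitf, Sox9 and Axl lie above 9 CPM in each.

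Pmel and Mlana were counted, but barely. Pmel (chromosome 10, 128704195 to 128720238) gave 84 UMIs in 84 cells, or 0.152 CPM with an exact Poisson interval of 0.121 to 0.188, and was seen in 37 of 45 hashtags. By hashtag it ran from 0 to 0.503 CPM with a median of 0.110 in control lines, and from 0 to 0.441 CPM with a median of 0.154 in KO lines, so the groups overlapped. Pmel overlaps Cdk2 and Dgka on the other strand, and the sources used here do not say whether counting used strand. In the myeloid cells of the same tumours Pmel was at 0.139 CPM (0.0450 to 0.323), and the intervals of the line cells and of these cells, which should lack the gene, overlapped.

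Mlana (chromosome 19, 29697824 to 29708634) was the one pigment gene with an uneven pattern. Of its 30 UMIs, 25 came from the 6163 line cells of day 0 and 5 from the 66332 cells of later days. Line 19 at day 0 held 1 UMI under letter A (0.408 CPM) and 18 under letter B (1.38 CPM). Line 24 at day 0 held 3 UMIs (0.277 CPM) and 2 UMIs (0.161 CPM). Line 15 at day 0 held 0 and 1 UMI, and line 18 had 0 UMIs on every day. All 9 later hashtags of line 19 were below both of its day 0 hashtags. Mlana did not pass the filter on low counts, so it was not tested in the main comparisons, and 18 of its 30 UMIs came from 1 hashtag. Without that filter the fitted log2 difference between days 6 to 16 and day 0 was -4.18 (SE 0.60). This value rests on 5 UMIs in the later days, so it is a description and no p-value is given.

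One line cell carried a melanocyte profile. It came from line 15 at day 16 under letter B and held 1908 UMIs, of which 12 were Dct, 2 Mitf, 1 Sox10, 1 Tyrp1 and 1 Mlana. It also had 5 UMIs of Pax3 and 2 of Kit, both expressed by melanocytes and their precursors and chosen here after their values were seen, and 0 of Axl and Sox9. Among the 72495 line cells it was the only one with UMIs of at least 3 of the 7 melanocyte genes (Mitf, Sox10, Tyr, Tyrp1, Dct, Pmel and Mlana). It was also the only one with at least 2 of the 5 pigment genes, although 112 cells had at least 1. A second Dct cell with 8 Dct UMIs, 1 of Tyrp1 and 1 of Sox10 lay outside the line cells, in line 24 at day 10 under letter B. That cell had 11 UMIs of Tyrobp, a myeloid gene, among 6442.

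A wider list of pigment cell genes, none of them among the 10, held both absent and abundant members. Slc45a2 and Gpr143, a transporter and a receptor of the melanosome, had 0 UMIs and Oca2, another melanosomal transporter, had 1. The early neural crest factors were abundant instead: Pax3 was at 71.0 CPM, Tfap2b at 90.7 CPM and Tfap2a at 21.9 CPM. Slc24a5, a pigment cell exchanger, was at 32.6 CPM, but it overlaps Myef2 on the other strand. Pax3, Tfap2a, Tfap2b and Slc24a5 are named here after their values were seen.

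Mitf itself (chromosome 6, 97807052 to 98021349) was present in every hashtag. It had 7619 UMIs, or 13.8 CPM (13.5 to 14.1), and a UMI in 9.48% of line cells. With each cell thinned to 1000 UMIs the share was 1.60%. In the myeloid cells of the tumours Mitf was higher, at 29.4 CPM (27.6 to 31.2), and it was at 4.35 CPM in the T cells. Macrophages are known to express Mitf too. The summed macrophage markers of the line cells were at 0.579% of their level in the myeloid cells. Tyrobp is among these markers and also sets both gates, so this share is partly fixed by the gates. The part of macrophage RNA in the Mitf level was not tested. Its UMIs were spread over 6871 line cells. The counts do not separate the promoters of Mitf, of which the table holds 3.

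In CPM, Mitf rose with time in the control lines and not in line 24. In line 15 it was at 8.28 and 8.07 CPM at day 0 and at 12.2 to 22.1 CPM (median 17.0) in the 9 later hashtags. Line 18 had 6.65 CPM at day 0, from 13 UMIs in 1 hashtag, and 11.5 to 23.6 CPM (median 16.7) later. Line 19 had 8.15 and 12.03 CPM at day 0 and 9.89 to 19.9 CPM (median 11.8) later. Line 24 started at 11.1 and 10.8 CPM and had 7.71 to 11.1 CPM (median 9.07) later.

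All 9 later hashtags of each control line were above that line's day 0, against 4 of 9 in line 19 and 0 of 8 in line 24, where 7 of 8 were below. As ratios of means, later days of line 15 were 2.11 times day 0, those of line 18 2.60 times, those of line 19 1.26 times and those of line 24 0.843 times. The difference between KO and control lines in this change was -1.05 on the log2 scale (SE 0.24; edgeR quasi-likelihood test, adjusted p = 4.50e-04). Of the genes tested for it, 39.0% were called, among them Mitf but neither Axl nor Sox9. Leaving out each line, scaling otherwise or using the single-line libraries alone gave -1.30 to -0.74, with adjusted p of 1.04e-04 to 0.0474 in edgeR or DESeq2. These fits took hashtags as replicates, so with 2 lines a group they cover these 4 lines only.

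Over both groups Mitf was higher on days 6 to 16 than on day 0 (log2 fold change 0.46, SE 0.14, edgeR adjusted p = 0.00462). In that comparison 58.1% of all genes tested were called, and so were Mitf, Axl and Sox9. Without control line 15 the value for Mitf was 0.21 (edgeR adjusted p = 0.236). From day 6 to day 16 Mitf rose by a further 0.34 (SE 0.12, edgeR adjusted p = 0.0309), where 33.3% of genes were called. Without line 19 that value was 0.23 (edgeR adjusted p = 0.269) and without line 18 0.33 (edgeR adjusted p = 0.112). The call was also lost under another hashtag call, at 0.26 (edgeR adjusted p = 0.0968), and with no filter on counts, at 0.33 (edgeR adjusted p = 0.0571). Macrophage markers rose on the later days as well, with 7 of 8 called higher than at day 0, and fibroblast markers with 6 of 6, against 28.9% of all genes. Their part in the rise of Mitf was not tested.

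**Figure D2:**
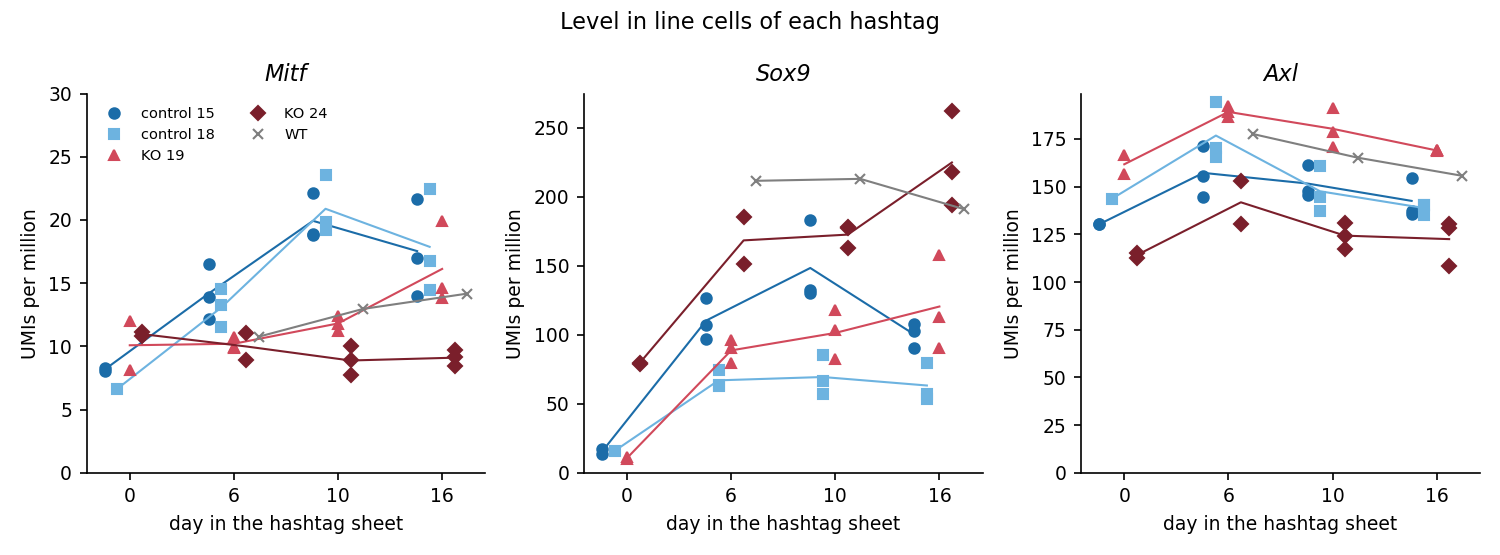
Level of Mitf, Sox9 and Axl (CPM) in the line cells of each hashtag against the day in the sheet, with points for hashtags, colours for lines and lines through the means. Mitf climbs from 6.65 to 8.28 at day 0 to 11.5 to 23.6 later in the control lines, and Sox9 climbs in all 4 lines.

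Sox9 (chromosome 11, 112782224 to 112787760) rose in every line, and by more than Mitf and Axl in the fit over time. It had 59665 UMIs in line cells, or 108 CPM (107 to 109), with a UMI in 35.1% of cells (9.90% when thinned). At day 0, line 15 was at 17.1 and 13.7 CPM, line 18 at 15.8, line 19 at 9.78 and 11.6, and line 24 at 79.6 and 79.2. Later hashtags of line 15 ran from 90.6 to 183 CPM (median 107) and those of line 18 from 53.4 to 85.3 (median 63.4). Those of line 19 ran from 79.3 to 157 CPM (median 96.4) and those of line 24 from 152 to 262 (median 182).

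All 35 later hashtags exceeded the day 0 hashtags of their own line. Line 15 reached 7.78 times its day 0 on average, line 18 4.20 times, line 19 9.66 times and line 24 2.41 times. In the fit over time Sox9 was higher by 2.29 in log2 units (SE 0.20, edgeR adjusted p = 3.49e-12), and by 2.002 to 2.98 under the 11 alternatives. Between day 6 and day 16 the difference was 0.10 (edgeR adjusted p = 0.679). Day 0 hashtags occur only in the single-line libraries, and within these alone the value was 2.32 (edgeR adjusted p = 5.55e-10).

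The markers of other cell types in the line cells moved with day as well. Summed fibroblast markers were at 9.18 to 133 CPM at day 0 and 301 to 1197 CPM later. All 6 of the 6 were called higher later in edgeR, where 28.9% of all genes were. Summed macrophage markers were at 16.3 to 73.1 CPM at day 0 and 18.4 to 426 CPM later, with 7 of 8 called higher, and all 4 testable T cell markers of 5 were also called higher. Summed T cell markers were at 0 to 3.05 CPM at day 0 and passed the filter mainly through the later days, so their count is a description. The gate sets Cd3e, a T cell marker, to 0 and caps Tyrobp, a macrophage marker. The part of these cell types in the rise of Sox9 was not tested. Over all days, Sox9 itself was lower in the myeloid cells, at 26.4 CPM, than in the line cells. A gate that also left out cells with Tyrobp, Krt5, Krt14, Cdh5, Dpt or Rgs5 gave 107 CPM in the line cells. That gate keeps fibroblasts without a Dpt UMI. Both values pool all days and do not address the rise. Counted per cell, with each cell thinned to 1000 UMIs, Sox9 was seen in 0.8% to 1.66% of line 15 cells at day 0 and 8.54% to 15.3% later. The shares were 2.14% and 5.12% to 8.30% for line 18, 0.465% to 0.828% and 6.45% to 12.9% for line 19, and 7.35% to 8.10% and 12.2% to 19.8% for line 24. The share of cells with a UMI was thus higher on later days in each line, without overlap.

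Sox9 also differed among lines. Over all days it averaged 101 CPM in line 15, 61.5 for line 18, 86.6 for line 19 and 169 for line 24, and the test among the 4 lines called Sox9 (edgeR adjusted p = 5.99e-10). That test called 81.0% of all genes, and Mitf, Axl and Sox9 among them. Line 24 was already at 79.4 CPM on average at day 0, above every other day 0 hashtag. The WT hashtags were at 212, 213 and 191 CPM on days 6, 10 and 16, above every control hashtag of the same day.

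Sox10 (chromosome 15, 79154908 to 79165240) was rare and sat mostly in 1 line. It had 228 UMIs in 175 line cells, or 0.413 CPM (0.361 to 0.470). Line 24 held 130 of those cells and 166 of the UMIs. Its 10 hashtags ran from 0.9905 to 4.50 CPM, and the other 32 hashtags of the 4 lines from 0 to 0.505 CPM, without overlap. Line 15 averaged 0.178 CPM, line 18 0.0408, line 19 0.0642 and line 24 2.60. The 3 WT hashtags, all from 1 mixed library, were at 0.497, 0.267 and 0.597 CPM on days 6, 10 and 16. Sox10 passed the filter on low counts only through line 24, so no p-value between lines or groups is given for it. Its fitted differences below are a description. Within line 24 the pooled level was 1.20 CPM at day 0, 2.17 at day 6, 2.49 at day 10 and 3.71 at day 16. No test of time is given either, since it would rest on the same line.

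**Figure D3:**
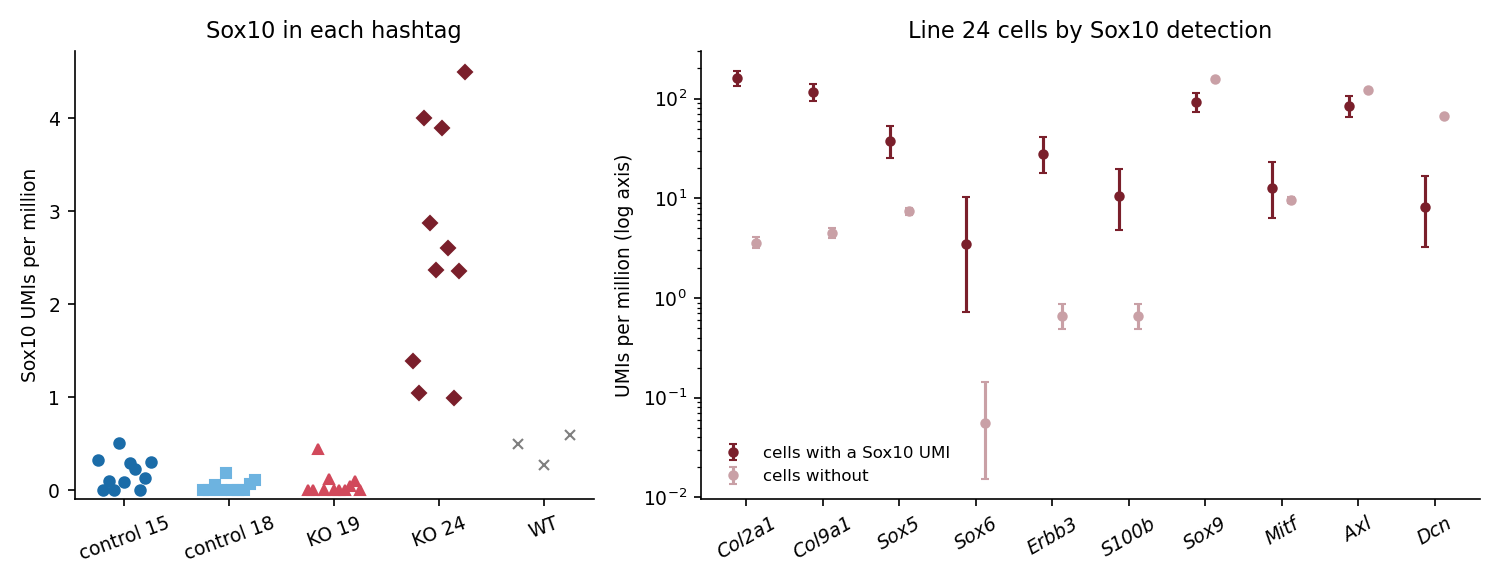
Left, Sox10 (CPM) in each hashtag by line; right, genes in line 24 cells with and without a Sox10 UMI (CPM, log axis, bars are exact Poisson intervals of 95%). All 10 line 24 hashtags lie above the 32 others, and Col2a1 and Col9a1 are higher in the cells with Sox10.

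The Sox10 cells of line 24 did not carry the pigment program. Among the 130 cells, Tyr, Tyrp1, Dct, Pmel, Mlana and Ngfr each had 0 UMIs, which for 860870 UMIs allows up to 3.48 CPM. Mitf was at 12.8 CPM (6.38 to 22.9) against 9.63 CPM (8.92 to 10.4) in the 14722 line 24 cells without Sox10. Genes of cartilage matrix stood out: Col2a1 was at 159 CPM (134 to 188) against 3.58, and Col9a1 at 116 CPM (94.5 to 141) against 4.52. A minority of the 130 cells held them, 37 with a UMI of Col2a1 and 41 with one of Col9a1. The 27 cells with Sox10 in lines 15, 18 and 19 had 0 UMIs of both, among 245914. Sox5, a partner of Sox9 in cartilage, was at 37.2 CPM (25.4 to 52.5) against 7.38, while Acan and Matn1, other cartilage genes, had 0 UMIs.

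Genes of the Schwann cell and glial lineage were also higher in these cells. Erbb3, a neuregulin receptor, was at 27.9 CPM (17.9 to 41.5) against 0.662, and S100b, a calcium-binding protein of glia, at 10.5 CPM (4.78 to 19.8) against 0.662. Of the 130 cells with Sox10, 17 had a UMI of Erbb3 and 6 had one of S100b. Mbp and Cdh19, further Schwann cell genes, had 0 UMIs. The fibroblast gene Dcn was lower, at 8.13 CPM (3.27 to 16.7) against 67.0, and Sox9 was at 91.8 CPM (72.7 to 114) against 156. The cells were split by Sox10 and these genes named after their values were seen, they share hashtags and libraries, and the values are a description. Summed Schwann cell markers, a list that holds Sox10 itself, were at 2.38 to 9.09 CPM in the line 24 hashtags and at most 1.74 CPM in those of lines 15, 18 and 19. In line 24 the summed markers of chondrocytes reached 33.1 CPM, those of macrophages 426 CPM and those of T cells 55.5 CPM, each the highest of the 4 lines. Their part in the Sox10 signal was not tested.

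Axl (chromosome 7, 25757273 to 25788705), a receptor kinase of the TAM family, had the most UMIs of the 10 genes. Line cells held 87444, or 158 CPM (157 to 159), and 56.9% had a UMI (14.0% when thinned). In myeloid cells it was at 95.4 CPM, in T cells at 55.2 CPM and in endothelial cells at 42.8 CPM. Axl changed little by comparison with Sox9. Control hashtags ran from 130 to 195 CPM (median 145) and KO hashtags from 109 to 192 CPM (median 157).

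The lines differed in Axl more than the groups did. The means were 147 CPM for line 15 and 153 for line 18, with 176 for line 19 and 125 for line 24 (edgeR test among lines, adjusted p = 2.74e-12). The 2 KO lines thus lay on either side of the 2 control lines. With time Axl was higher on days 6 to 16 than on day 0 by 0.23 (SE 0.05, edgeR adjusted p = 2.91e-05). From day 6 to day 16 it fell by 0.26 (SE 0.04, edgeR adjusted p = 3.97e-05). In control lines the mean was 135 ± 7.68 CPM (SD, n = 3) at day 0, 167 ± 16.8 (SD, n = 6) at day 6, 150 ± 9.58 (SD, n = 6) at day 10 and 141 ± 7.22 (SD, n = 6) at day 16. In KO lines the same means were 138 ± 27.8 (SD, n = 4), 170 ± 27.2 (SD, n = 5), 152 ± 31.7 (SD, n = 6) and 146 ± 26.6 (SD, n = 6) CPM. The highest level fell on day 6 in both groups.

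Ngfr (chromosome 11, 95568818 to 95587735), the low-affinity neurotrophin receptor of dedifferentiated melanoma, was close to absent. It had 40 UMIs in 38 of the 72495 line cells, or 0.0724 CPM (0.0517 to 0.0986), and was seen in 20 of 45 hashtags. The myeloid cells had 20 UMIs, or 0.554 CPM (0.338 to 0.855), above the interval of the line cells. With the stricter gate 23 UMIs were left (0.0458 CPM). By hashtag Ngfr ran from 0 to 0.292 CPM in control lines and from 0 to 0.974 CPM in KO lines, with medians of 0 and 0.0477. The highest hashtags had 4 UMIs. Ngfr did not pass the filter on low counts in the main comparisons. With no filter the value for KO against control was 1.04 (edgeR adjusted p = 0.190). That for days 6 to 16 against day 0 was 2.51 (edgeR adjusted p = 0.0530). The edgeR test among the 4 lines called Ngfr, as it did 12368 of 23300 genes. With at most 4 UMIs in a hashtag, that call is a description.

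For KO against control lines, 50.6% of all 13248 genes tested were called, among them Mitf and Sox9 but not Axl. Mitf was lower in KO hashtags, at 7.71 to 19.9 CPM (median 10.8) against 6.65 to 23.6 (median 16.5), with overlap. The fitted difference of Mitf was -0.45 in log2 units (SE 0.10, edgeR adjusted p = 4.86e-04). Sox9 was higher, at 9.78 to 262 CPM (median 113) against 13.7 to 183 (median 79.4), again with overlap, a fitted difference of 0.76 (SE 0.20, edgeR adjusted p = 0.00167). The KO hashtags had a median of 0.446 CPM of Sox10 and the control hashtags 0.0612, and the fitted difference of 3.04 (SE 0.70) is a description, since line 24 alone carried the gene past the filter. The fitted difference for Axl was 0.06 (SE 0.07, edgeR adjusted p = 0.473). Markers of other cells differed between the groups too, where 28.1% of all genes were called higher in KO lines. Called higher there were all 4 testable T cell markers, both testable endothelial markers and 3 of 8 macrophage markers. So were both testable chondrocyte markers and all 3 testable Schwann cell markers (Sox10 included). Of the 6 fibroblast markers, 1 was called higher and 2 lower. Of 4 testable pericyte or smooth muscle markers, 1 was higher and 1 lower. Among 4 testable keratinocyte markers 1 was higher. The 3 of 8 macrophage markers were near the share of all genes. Summed chondrocyte markers were at most 0.260 CPM in control hashtags and reached 33.1 CPM in line 24. The chondrocyte markers and Sox10 passed the filter mainly through line 24. Summed T cell markers had a median of 28.3 CPM there, against 1.77 in line 15, 2.68 in line 18 and 2.89 in line 19. The calls of chondrocyte markers, T cell markers and Sox10 are thus a description. Summed T cell markers ran from 0 to 6.94 CPM in control hashtags and from 0.689 to 55.5 CPM in KO hashtags, and their part in these differences was not tested.

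With 2 lines a group, single lines set several of these values. The Sox10 difference is that of line 24, since line 19 was below line 15, and without line 24 Sox10 had too few counts to be tested. Without line 24 the Sox9 value was 0.13 (edgeR adjusted p = 0.536), and without control line 18 it was 0.44 (edgeR adjusted p = 0.144). For Axl, the value was -0.27 without line 19 (edgeR adjusted p = 7.45e-06) and 0.28 without line 24 (edgeR adjusted p = 5.16e-07). Mitf kept its sign and its call without each line, at -0.70 to -0.29, and over all days both KO lines averaged below both control lines. At day 0 alone the order was the other way, with means of 10.1 CPM in line 19 and 10.97 in line 24 against 8.18 in line 15 and 6.65 in line 18.

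Within the 2 mixed libraries alone the values were -0.38 for Mitf (edgeR adjusted p = 0.336), 0.56 for Sox9 (0.390 by the same adjustment) and 3.33 for Sox10, so neither call held there. Pairing by library and day, over 11 hashtags in 5 blocks that hold both groups, gave -0.33 for Mitf (edgeR adjusted p = 0.488) and 0.51 for Sox9 (0.540), an alternative chosen after seeing the data. In the first mixed library, line 15 was at 16.5 ± 2.42 CPM for Mitf and line 19 at 14.2 ± 5.01 (SD, n = 3 hashtags each), with overlap. In the second, 2 hashtags of line 18 were at 11.5 and 19.8 CPM and line 24 at 9.53 ± 0.560 (SD, n = 3), without overlap. With library as a term the values were -0.35 for Mitf (edgeR adjusted p = 0.231), 0.61 for Sox9 (0.177) and 2.39 for Sox10. After summing each line to 1 sample, they were -0.54 for Mitf (edgeR adjusted p = 0.582), 0.57 for Sox9 (0.614) and 3.19 for Sox10. The sizes of Mitf and Sox9 thus stayed near those of the fit over hashtags, while their calls were lost. Permuting the 4 line means exactly (two-sided) gave p = 0.333 for Mitf, 0.667 for Sox9 and 1 for Axl, and 2 lines against 2 cannot give less than 0.333.

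Of 26 genes known from dedifferentiated or mesenchymal melanoma states, 25 could be tested, and 19 were higher and 2 lower on days 6 to 16 than on day 0. Over all genes tested 28.9% were higher and 29.2% lower, and the median log2 fold change was 1.26 in the list and -0.01 over all genes. Members with few or no counts at day 0 passed the filter through the later days, where they were high, so the count and the median are a description. The genes with the largest changes were Snai1, Ror2 and Wnt5a, all 3 of this kind and given without a test. Snai1, a repressor of epithelial genes, was at 0.0869 ± 0.131 CPM (SD, n = 7) at day 0 and 3.20 ± 2.16 (SD, n = 35) later. Wnt5a, a secreted ligand, was at 0.340 ± 0.317 CPM (SD, n = 7) and 5.27 ± 4.96 (SD, n = 35). Its receptor Ror2 had 2 UMIs at day 0 and 349 later, and passed the filter only through the later days. The 2 that fell, named after their values were seen, were Snai2, from 45.9 ± 15.9 to 13.0 ± 3.94 CPM (SD, n = 7 and 35), and Ccn1.

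The fibroblast markers given above rose on the same days, and several genes of this list are expressed by fibroblasts too. Their part in the rise was not tested. Vim, an intermediate filament of mesenchymal cells also named after its values were seen, was already at 3587 to 10861 CPM at day 0. Under the alternatives 17 to 20 of the list were called higher and 2 to 3 lower.

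**Figure D4:**
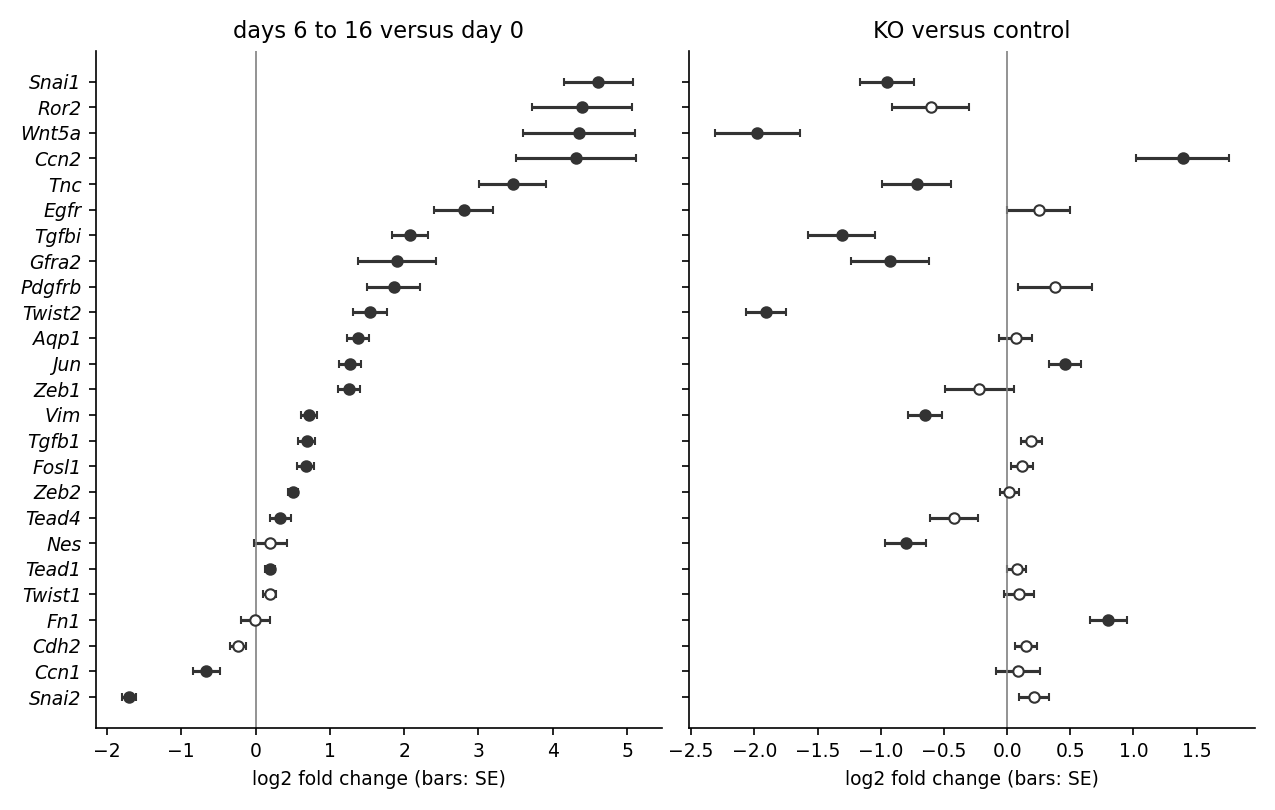
Log2 fold changes (points, with bars of 1 SE) of the 25 testable genes of the dedifferentiated state list, on days 6 to 16 against day 0 (left) and in KO against control lines (right), filled where the edgeR adjusted p is under 0.05. On the left 19 are higher and 2 lower, and on the right 3 are higher and 8 lower.

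Between KO and control lines the same list had 3 genes higher and 8 lower, against 28.1% and 22.5% of all genes. Wnt5a was at 1.59 ± 1.48 CPM in KO and 7.30 ± 5.44 in control hashtags (SD, n = 21 each). Its KO levels were near the filter on counts. The fitted log2 fold change of Wnt5a, -1.98 (SE 0.34), and its place among the 8 lower are thus a description. Twist2, a mesenchymal transcription factor, was at 8.42 ± 2.96 CPM against 35.5 ± 16.9 (SD, n = 21 each), a difference of -1.91 (SE 0.16, edgeR adjusted p = 2.96e-12). Ccn2, a matricellular target of YAP, averaged 1.56 CPM in line 19 and 2.56 in line 24, against 0.709 in line 15 and 0.946 in line 18. These low levels were near the filter on counts. The fitted difference of Ccn2, 1.39 (SE 0.37), and its place among the 3 higher are thus a description. After summing each line to 1 sample, 0 genes of the list were called in edgeR, where 0 genes of all were called and 1363 had an unadjusted p under 0.05, and without line 19 the counts were 10 higher and 8 lower.

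The pigment list of 20 genes had 12 that could be tested, with 4 higher and 3 lower on later days and 5 higher and 3 lower in KO lines. Over all genes 28.9% were higher and 29.2% lower with time, and 28.1% and 22.5% in KO lines. The 4 higher with time and both counts of 3 lower were thus near the background. Gpnmb, a melanosomal glycoprotein also made by macrophages, was at 463 ± 270 CPM (SD, n = 7) at day 0 and 79.6 ± 43.8 (SD, n = 35) later (log2 fold change -2.50, SE 0.27, edgeR adjusted p = 3.80e-10). Ednrb, the endothelin receptor of migrating melanoblasts, had 0 UMIs at day 0 and 218 later, at least 9.63-fold higher against a floor of 3 counts over the day 0 hashtags. It passed the filter only through the later days, so no test is given, and its place among the 4 higher is a description. S100b, with mean levels of 0.0626 CPM at day 0 and 0.539 CPM later, is in the same position. In KO hashtags Ednrb averaged 0.167 CPM and in control hashtags 0.688, and Erbb3 averaged 1.21 and 0.537 CPM. No test is given, since these low levels passed the filter mainly through the group where they were higher. Their levels were both below 4 CPM in every hashtag.

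Among the relatives of Sox9 and Sox10, 4 of 7 could be tested and were called higher with time, where 28.9% of all genes were. Sox11 passed the filter only through the later days, so the count is a description. Sox2, a stem cell factor, was at 8.89 ± 3.22 CPM (SD, n = 7) at day 0 and 24.4 ± 7.51 (SD, n = 35) later (log2 fold change 1.54, SE 0.15, edgeR adjusted p = 6.44e-11). Sox5 rose by 0.86 (SE 0.19, edgeR adjusted p = 1.70e-04), and Sox11 had 1 UMI at day 0 and 436 later. In KO lines 1 of the 4 was called, near the 28.1% of all genes that were higher: Sox4, which was higher by 0.47 (SE 0.16, edgeR adjusted p = 0.0152) and had a value of -0.17 without line 24. The relatives of Mitf moved less: Tfeb rose with time by 0.44 (SE 0.11, edgeR adjusted p = 0.00121) and Tfe3 by 0.42 (SE 0.08, edgeR adjusted p = 1.22e-05). Tfeb was lower in KO lines (log2 fold change -0.32, SE 0.09, edgeR adjusted p = 0.00332), and Tfec had too few counts to test.

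Of 11 ligands and receptors around Axl and Ngfr, 7 could be tested, with 3 higher and 2 lower on later days, where 28.9% of all genes were higher and 29.2% lower. The 2 lower are thus at the background. Mertk, a second TAM receptor, rose by 1.15 (SE 0.17, edgeR adjusted p = 2.06e-07). The macrophage markers of the line cells rose on the same days, and their part in the changes of this list was not tested. The TAM ligand Pros1 rose by 0.83 (SE 0.21, edgeR adjusted p = 7.49e-04). Gas6, another TAM ligand, had 31 UMIs at day 0 and 564 later, low levels that were near the filter on counts. Its fitted rise of 1.72 (SE 0.66) and its place among the 3 higher are thus a description. That place held in 7 of 11 alternatives. For this gene, which was at 24.4 CPM in the myeloid cells, the value was 0.65 with the stricter gate (edgeR adjusted p = 0.324). In KO lines 2 of the 7 were lower, against 22.5% of all genes: Tyro3 with a log2 difference of -0.40 (SE 0.11, edgeR adjusted p = 0.00285) and Pros1 with -0.37 (SE 0.14, edgeR adjusted p = 0.0253).

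Mitf, Axl and Sox9 varied over hashtags largely apart from each other. Across the 42 hashtags of the 4 lines, which share lines and libraries, the correlation of log2 CPM was 0.16 for Mitf with Axl, 0.20 for Mitf with Sox9 and -0.13 for Axl with Sox9. Of 8082 genes compared, the 3 with the most similar pattern were Ube2g1, Marveld1 and Sema3b for Mitf (0.87, 0.86 and 0.86). For Axl they were Prkar2b, Vcpkmt and Tigit (0.88, 0.86 and 0.83), and for Sox9 Furin, Spsb1 and Ier5 (0.93, 0.92 and 0.92). In cells thinned to 1000 UMIs, 15.7% of those with a Mitf UMI and 14.0% of those without had one of Axl. Sox9 was seen in 9.13% of cells with Axl and 10.0% of those without.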

How the data were processed

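Line cells of 6 libraries made with the 10x 5′ kit were analysed from matrices of raw UMI counts per gene and barcode, deposited by the authors and made with Cell Ranger 6.0.0 on mm10 per the submitters' processing notes. The sources used here do not name the annotation. Positions came from GENCODE M21 (GRCm38).

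Barcodes with 300 or more genes and 15% or less mitochondrial counts were kept. HTODemux (Seurat 5.3.0) assigned hashtags. Hashtag doublets and 2 hashtags with under 0.1% of hashtag counts were left out. Doublets within a hashtag remain. The myeloid gate needed Ptprc and at least 2 UMIs of Tyrobp, the T gate Ptprc and Cd3e, and the endothelial gate Pecam1 and Cdh5.

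Counts were summed per hashtag and tested with edgeR 4.0.16 (filterByExpr, TMM, quasi-likelihood), with Benjamini-Hochberg adjustment over all genes tested and a threshold of 0.05. Day was a term for groups and lines, and line for time. Each SE is the log2 fold change over the square root of the F statistic. The median log2 fold change of all genes was 0.03 for KO against control. The alternatives tried were no filter on counts, RLE scaling, DESeq2 1.42.0, a stricter cell filter (at least 1000 UMIs, at most 10% mitochondrial), another hashtag call, a stricter gate, single-line or mixed libraries alone, a library term, pairing by library and day (added after seeing the data), 1 sum per line and each line left out. The fits were tested on simulated data. Related lists name at most 3 genes past the threshold with the largest changes in a comparison. Likeness is Pearson's r of log2(CPM + 1) over genes with a mean of at least 10 CPM. The 10 genes and the lists were chosen with earlier results of these data known. One gene that this rule names is not reported here.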

Additional observations from a re-analysis of the deposited data

Results flagged for a closer look

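Of 27 sets of 4 to 6 hashtags (one gene, group and day each), 2 held a hashtag that stood apart from the rest by Dixon's ratio, and chance alone marks about 1 in 20. Sox10 in the KO hashtags of day 6 was at 3.998 CPM in line 24 under letter A, and the next highest of the 5 was 0.9905 CPM. Axl in the control hashtags of day 16 was at 155 CPM in line 15 under letter C, from a mixed library, and the next highest of the 6 was 141 CPM.

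The change in Mitf from day 0 to days 6 to 16 differed between KO and control lines by -1.05 on the log2 scale in the edgeR test of the difference itself (adjusted p = 4.50e-04). All 18 later control hashtags were above their line's day 0, and 4 of 17 later KO hashtags. The test took hashtags as replicates and covers these 4 lines only, and day 0 of line 18 rests on 13 Mitf UMIs in 1 hashtag.

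In the WT hashtags, which entered no comparison, Sox9 averaged 205 CPM over 3 hashtags, and the highest control hashtag was at 183 CPM.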

How the results depend on the processing

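The 6704 genes called between KO and control lines became 1700 with a library term, 140 in the mixed libraries alone and 0 with 1 sum per line in edgeR, where 1363 genes had an unadjusted p under 0.05. Leaving out 1 line at a time gave 2174 to 5060 called genes for day 16 against day 6, with 2174 without line 18, and 2239 to 4883 for the interaction of group and time, with 2239 without line 15. Of the alternatives for the 10 genes, 6 turned a sign. Leaving out 1 line at a time moved Axl in KO against control from -0.27 (without line 19) to 0.28 (without line 24), and 1 sum per line gave -0.020. For day 16 against day 6 the range was -0.061 (without line 15) to 0.86 for Sox10 and -0.011 (without line 19) to 0.20 for Sox9. For the interaction it was -0.94 (without line 15) to 1.47 for Sox10 and -1.37 (without line 19, edgeR adjusted p = 7.81e-04) to 0.61 (without line 24) for Sox9. The cause was not tested. For Tyr, Tyrp1 and Dct the depth limits what can be said to counts and their upper limits. The fits printed for Mlana and Ngfr used no filter on counts, with 30 and 40 UMIs of these genes in all line cells. The paired fit, with a block for each library and day of the mixed libraries that hold both groups (11 hashtags, 5 blocks, chosen after seeing the data), called 76 genes between KO and control lines. No paired analysis was possible by replicate number, because the sample labels give the control and KO lines none in common. The letters of the hashtag sheet recur in both groups, but nothing in the labels says that they pair hashtags.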
